A study of Homo sapiens with 4 samples.

Results

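Distal open chromatin that appeared only in the enzalutamide-resistant cells was described from lists of ATAC-seq peak summits. A region counted as distal and resistant-only when both resistant libraries had a summit in it, neither LNCaP library did, and its strongest summit lay more than 3 kb from any RefSeq gene end of GRCh38. Members were thus chosen by the presence or absence of called summits and by position, and their scores in the resistant libraries are given as a description. The rule found 3484 regions among 150917 in all, which is 2.31% of the regions and 3.3% of the 105681 distal ones. Of the 21430 distal regions with a summit in both resistant libraries, 16.3% had none in LNCaP. The count moved with the settings: it was 11881 without resistant replicate 2, which also lifts the need for a summit in both resistant libraries, 6437 with equal numbers of summits per library and 1874 with a score of at least 10. LNCaP is a human prostate cancer cell line that responds to androgens, and enzalutamide is an antiandrogen drug used against prostate cancer. The 2 LNCaP libraries carry the genotype label WT and no treatment. The 2 other libraries are labelled LNCaP-resistance cells under enzalutamide. Per the study's methods the resistant cells came out of LNCaP through growth in charcoal-stripped serum, which is poor in androgens, and then stepwise exposure to rising doses of the drug, so they are descendants of 1 line that differ from it by both. The labels give no subline. The paper compares ATAC-seq peaks of LNCaP with those of its subline LN-35, and also counts differentially accessible peaks for each resistant line against LNCaP. The labels number the libraries repeat1 and repeat2 without saying whether they were separate cultures.

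Distal open regions, which include enhancers, are stretches of DNA bound by transcription factors far from the gene starts that they may regulate. Their activity is more specific to a cell state than that of promoters. The gene an enhancer acts on need not be the nearest one, so the genes named here give positions and not targets. ATAC-seq reads out such DNA because a transposase cuts where nucleosomes are sparse. A summit marks the point of highest signal inside a called peak, and its score has the form of −log10 of a p-value or q-value. Scores were compared as percentiles, the percent of summits in a library's own list with an equal or lower score.

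The lists held 117245 and 107344 summits for LNCaP and 70866 and 45618 for the resistant cells, and the read depth behind them is unknown. Absence from a list means that no peak was called, which is not the same as absence of reads. At the 5′ ends of protein-coding genes the libraries carried marks of prostate cells: a summit within 1 kb of KLK2, a kallikrein gene of the luminal prostate, had percentiles of 87.3 and 87.3 for LNCaP and of 83.2 and 75.3 for the resistant cells, and FOXA1, a pioneer factor of that lineage, had a summit in all 4 libraries. PTPRC, the leukocyte antigen CD45, had none, and neither did KLK3, which encodes prostate-specific antigen. An exact permutation test of 2 libraries against 2 cannot go below a two-sided p of 0.333, so no difference between cell types was tested. Intervals are 95% Wilson intervals over regions, which are not replicates, and cover counting error only.

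The distal resistant-only regions were mostly of modest score, and strong ones were rare. Their median percentile was 51.2 in resistant replicate 1 and 30.6 in resistant replicate 2, against 66.0 and 47.2 for the 15926 distal regions found in all 4 libraries. The resistant-only regions near a gene end, 2309 in number, had medians of 55.7 and 37.2. In scores, the median was 16.1 in replicate 1 (2.01 to 112) and 6.18 in replicate 2 (1.31 to 63.9). The order of the libraries held for most regions, since 83.2% had the higher percentile in replicate 1. Across the 3484 regions the percentiles of the replicates had a Spearman rho of 0.667 and a Pearson r of 0.678, given as a description because both summits had to be called for a region to enter. The summits of the replicates lay close together, with a median of 27 bp between them and 83.0% within 100 bp. Both libraries were above percentile 75 in 111 regions, above 80 in 62 and above 90 in 9.

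**Figure D1:**
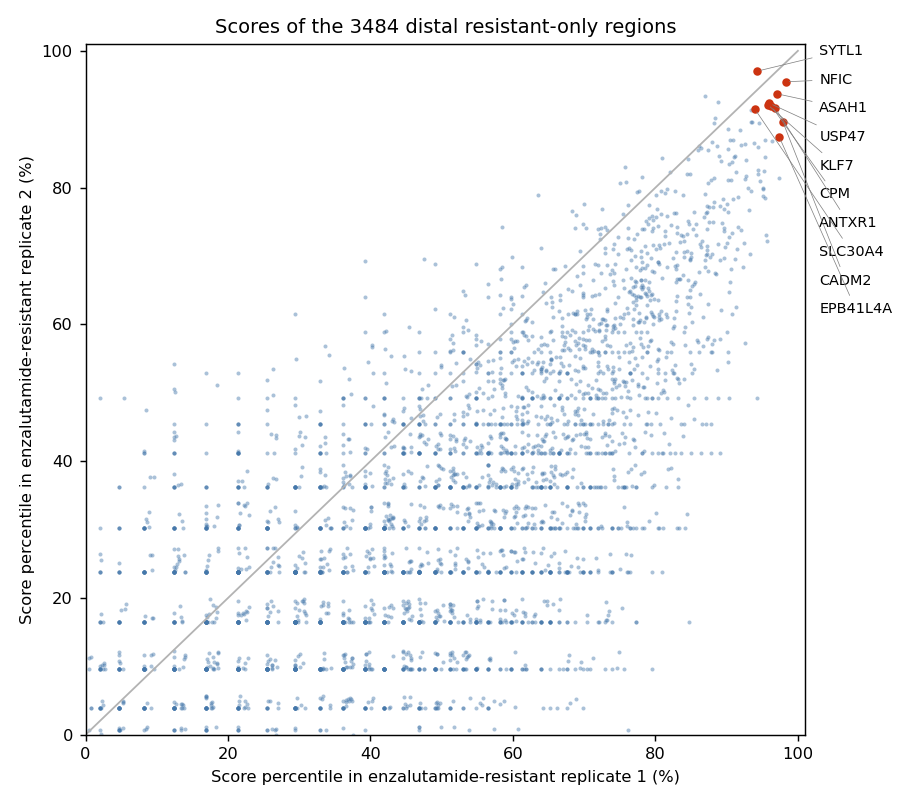
Score percentile of each of the 3484 distal resistant-only regions in resistant replicate 1 (x axis, %) and resistant replicate 2 (y axis, %), with the line of equality in grey and the 10 regions of highest mean percentile in red, labelled by host or nearest protein-coding gene. Most points lie below the line, and columns and rows of points mark scores that many summits share.

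The share of regions without an LNCaP summit fell as the resistant signal rose. It was 29.8% (27.7% to 32.0%) of the distal regions whose mean percentile in the resistant libraries was at most 20, 16.8% (15.9% to 17.7%) between 40 and 60, and 2.07% (1.37% to 3.11%) above 90, where 22 of 1064 regions qualified. Many weak summits also had identical scores. Scores held by at least 100 summits of a list were carried by 46.1% of the distal resistant-only regions in replicate 1 and 48.5% in replicate 2, against 30.1% and 32.8% of the distal regions found in all 4 libraries. In both libraries at once this applied to 1386 regions, or 39.8%. It applied to 62.0% (55.1% to 68.3%) of those more than 100 kb from any gene end and to 34.8% (32.6% to 37.1%) of those inside protein-coding genes. How far the length of the lists set these shares was not tested.

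**Figure D2:**
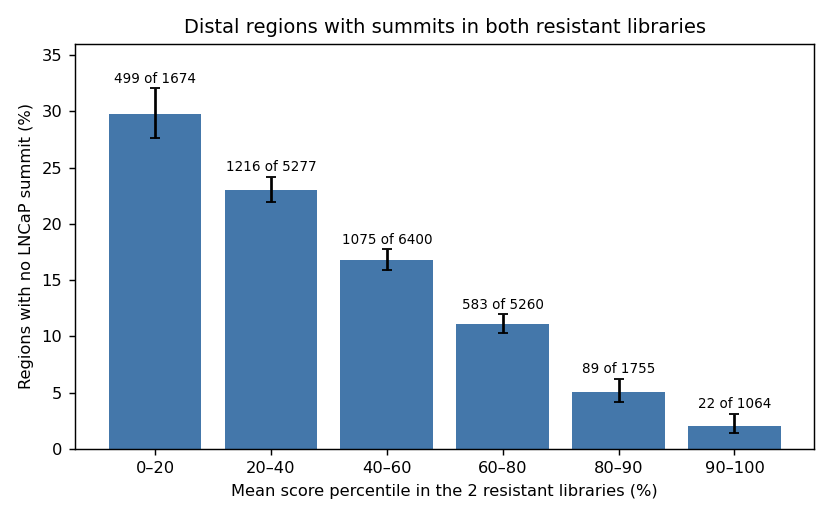
Share of distal regions with summits in both resistant libraries that had no LNCaP summit (y axis, %), by the mean score percentile of the resistant libraries (x axis, %); bars are shares, error bars are 95% Wilson intervals, and the counts stand above them. The share goes down with every step, from 29.8% to 2.07%.

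LNCaP summits were often not far away. The nearest one lay a median of 6148 bp from the strongest summit of a region (504 to 475374 bp), within 1 kb for 8.27% of the regions, within 5 kb for 43.3% and beyond 50 kb for 6.63%. For the 288 regions with one within 1 kb, the neighbouring region that held it was LNCaP-only in 87 cases, shared by all 4 libraries in 73 and of a mixed pattern in 128. At the 3 kb limit itself, the regions just inside lay 3001 bp (CCDC201), 3004 bp (C14orf180) and 3008 bp (LOC107984311) from a gene end, and those just outside lay 2998 bp (CREB5), 2995 bp (LOC112268067) and 2991 bp (ACSL1) away.

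The 10 strongest regions lay at genes of unlike function, and 3 of them sat beside an LNCaP-only region. The highest mean percentile belonged to a region at 3344073 to 3344582 on chromosome 19, 15307 bp upstream of NFIC, a nuclear factor I transcription factor. It scored 112 and 57.7 in the resistant libraries, at percentiles 98.3 and 95.5. The LNCaP libraries had their nearest summits 665 and 660 bp away, at percentiles 74.3 and 79.7, and the resistant libraries had none there. The second, at 27349214 to 27349748 on chromosome 1, lay inside SYTL1, which encodes a synaptotagmin-like protein of vesicle transport, 7476 bp from its 5′ end. It scored 85.9 and 63.9, at percentiles 94.3 and 97.0. LNCaP summits stood 527 and 516 bp from it, at percentiles 95.1 and 92.2, again with no resistant summit there. The third region of this kind lay at 84548589 to 84549099 on chromosome 3, 410140 bp from CADM2, a synaptic cell adhesion gene. It was at percentiles 97.9 and 89.7, and LNCaP summits at percentiles 73.9 and 80.7 stood 756 and 758 bp away. At these 3 sites the summits called in LNCaP and in the resistant cells thus lay between 516 and 758 bp apart. The lists give summits without peak bounds, so whether these belong to separate open sites cannot be told.

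The other 7 strong regions had no LNCaP summit within 1 kb. On chromosome 8, the region at 18061282 to 18061791 inside ASAH1, the acid ceramidase gene, was at percentiles 97.1 and 93.7, and the nearest LNCaP summit was 5466 bp away. The region at 69178216 to 69178722 on chromosome 2 lay inside ANTXR1, which encodes a collagen-binding membrane receptor, at percentiles 96.8 and 91.6. Another, at 68933000 to 68933544 on chromosome 12, lay inside CPM, which encodes carboxypeptidase M, at 96.3 and 91.9, with the nearest LNCaP summit 20454 bp away. Outside protein-coding genes were the regions 30425 bp upstream of USP47, a deubiquitinase gene, at 96.0 and 92.3, and 137763 bp upstream of KLF7, a Krüppel-like factor, at 95.7 and 92.1. The region 26228 bp upstream of SLC30A4, a zinc transporter gene, lay inside the transcribed pseudogene HMGN2P46 and was at 94.0 and 91.5. The last, 113745 bp upstream of EPB41L4A, which encodes a band 4.1 family protein, was at 97.4 and 87.4. Replicates differed by less than 10 percentile points at each of the 10.

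The promoters of these genes, which the rule did not use, were not higher in the resistant cells. A promoter was read as the strongest summit within 1 kb of the gene's 5′ end, with percentile 0 where there was none. Of the 8 genes with a known strand, 6 had a summit in all 4 libraries, and in all 6 the mean percentile was lower in the resistant cells. NFIC had 63.2 and 58.7 in LNCaP and 44.8 and 9.77 in the resistant cells. At EPB41L4A the values were 93.6 and 89.1 in LNCaP against 75.2 and 71.8. At ANTXR1 they were 71.3 and 67.9 in LNCaP against 60.7 and 46.8 in the resistant cells. SLC30A4 had 85.6 and 76.8 against 71.1 and 67.9. These 4 did not overlap between the cell types, and over all 9288 promoters with a summit in every library 20.8% were lower without overlap and 27.8% higher. At SYTL1 (92.0 and 85.4 against 87.1 and 74.3) and USP47 (82.1 and 72.2 against 80.5 and 71.0) the cell types overlapped. CPM and KLF7 had no summit at the 5′ end in any library.

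By position, the distal resistant-only regions lay less often inside protein-coding genes than the other distal classes. Of the 3484 regions, 48.1% (46.4% to 49.7%) were inside such a gene, against 57.0% (56.5% to 57.5%) of the 33295 distal LNCaP-only regions and 54.5% (53.7% to 55.3%) of the distal regions found in all 4 libraries. Another 11.4% (10.4% to 12.5%) lay inside a non-coding gene or pseudogene alone, mostly long non-coding RNA genes, and 40.5% (38.9% to 42.2%) lay inside no gene, against 32.4% and 35.1%. The distance to the nearest gene end had a median of 15706 bp and reached 511465 bp, and 5.88% of the regions were more than 100 kb from any gene end, against 5.12% and 3.65%. Along the host gene, 22.6% (20.4% to 24.9%) lay in the first 25% from the 5′ end and 22.3% (20.2% to 24.7%) in the last 25%, close to the 23.7% and 22.8% of LNCaP-only regions. Exons and introns were not told apart, because the annotation used gives gene spans.

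Chromosome 7 held a larger share of the distal resistant-only regions than of either other class. It carried 304, or 8.73% (7.83% to 9.71%), against 4.83% (4.61% to 5.07%) of the LNCaP-only and 6.81% (6.43% to 7.21%) of the shared distal regions, and it was the 1 chromosome whose interval lay above both. In all summits, chromosome 7 made up 5.52% and 5.44% of the LNCaP lists and 6.64% and 6.36% of the resistant lists, and the part of this in the result was not tested. Chromosome 11 lay below both, with 140 regions, or 4.02% (3.42% to 4.72%), against 4.97% and 5.16%. Chromosomes 4, 6, 9, 19 and X were above the LNCaP-only share alone, and chromosomes 2, 3, 5 and 18 below it alone, with 7.03% against 9.04% on chromosome 2. Chromosome 19 held 3.19% (2.65% to 3.82%) of the regions, against 1.45% of the LNCaP-only and 3.20% of the shared ones.

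**Figure D3:**
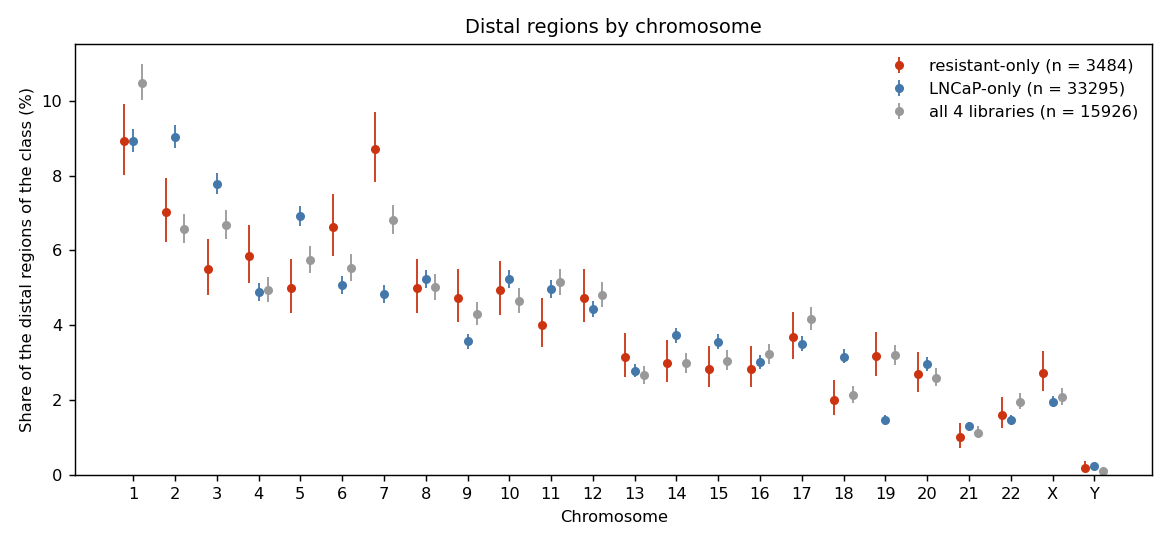
Share of each class of distal regions on each chromosome (y axis, %; x axis, chromosome) for the resistant-only (red), LNCaP-only (blue) and shared (grey) regions, with 95% Wilson intervals. Chromosome 7 stands out, with 8.73% of the resistant-only regions against 4.83% and 6.81%.

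Few of the regions had another close by. In all, 213, or 6.11% (5.37% to 6.96%), had another within 10 kb, and the median gap between neighbours was 474442 bp. The corresponding shares of 28.6% in the LNCaP-only and 18.1% in the shared class belong to sets that are larger, so the values do not compare the classes at 1 density. Joined at 10 kb, the regions formed 3271 singles, 99 pairs and 5 groups of 3. Of the 6968 regions next to them on either side, 5.88% (5.36% to 6.46%) were resistant-only, against 3.84% of all regions, while 23.9% were LNCaP-only, against 27.5%. Among 5 Mb windows, 579 of 608 with any distal region held at least 1, and the median was 5 and the highest 21. Of the windows with 8 or more, the largest share of distal regions was 17.8% (8 of 45), at 20 to 25 Mb of chromosome 19 among zinc-finger genes such as ZNF91 and ZNF429, and the next was 15.5% (13 of 84), at 70 to 75 Mb of chromosome 13 with KLHL1, DACH1, KLF5 and KLF12.

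All but 1 of the 5 groups of 3 lay inside a gene. The strongest, at 4444257 to 4449868 on chromosome 18, was in DLGAP1, which encodes a scaffold protein of the postsynaptic density, between 5792 and 10788 bp from its 5′ end. Its regions were at percentiles 90.2 and 85.6, 58.7 and 31.8, and 43.0 and 45.8 in resistant replicates 1 and 2. The 5′ end of DLGAP1 itself had 58.6 and 66.9 in LNCaP, below the 96.1 and 94.0 of the resistant cells, without overlap. The group in EGFR, the epidermal growth factor receptor gene, spanned 55065020 to 55078210 on chromosome 7, with percentiles of 63.5 and 45.4, 53.8 and 36.6, and 51.2 and 18.6, and here the 5′ end overlapped between the cell types (91.2 and 68.2 in LNCaP, 91.0 and 78.5 in the resistant cells). In NDRG4, a gene of the N-myc downstream-regulated family expressed in brain and heart, 3 regions lay within 1926 bp, the first at percentiles 79.4 and 57.7 and the others below 40, while LNCaP had 52.0 and 49.8 at the gene's 5′ end and the resistant cells less, 40.4 and 36.8. The group in MAN1C1, a Golgi mannosidase gene, ranged from 44.7 to 64.4 in replicate 1 and from 18.5 to 42.9 in replicate 2. The fifth lay between 375846 and 385133 bp upstream of OPRM1, the mu opioid receptor gene, whose 5′ end had no summit in any library.

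A few long genes held several regions each. Protein-coding genes that held at least 1 numbered 1392, or 6.95% of the 20037 annotated, of which 1164 held 1, 169 held 2 and 59 held 3 or more. Of these hosts, 1038 also held a distal LNCaP-only region and 927 a distal region found in all 4 libraries, while 207 held neither. The median host was 120410 bp long, against 24115 bp for all protein-coding genes. The most, 5 each, were held by MAGI2, EGFR, MACROD2 and AFF3, and 4 each by INPP4B, DLGAP1, PTPRD and RIMS2. Several of them held more distal LNCaP-only than resistant-only regions: DLGAP1 held 13 LNCaP-only and 7 shared, EGFR 9 and 1, MACROD2 11 and 14, and AFF3 11 and 8. MAGI2 held 3 LNCaP-only and 5 shared, and RIMS2 4 and 5. INPP4B, which encodes a phosphatase that restrains PI3K signalling, held 4 resistant-only against 2 LNCaP-only and 2 shared distal regions. Its regions were at percentiles 81.4 and 79.3, 63.9 and 71.2, 85.0 and 41.1, and 41.9 and 23.8, the nearest LNCaP summit being between 11660 and 39393 bp away. PTPRD, a receptor tyrosine phosphatase gene active at synapses, held 4 against 1 and 1. A region of PTPRD at percentiles 80.3 and 49.3 was 475374 bp from any LNCaP summit, the longest such distance in the set. AFF3, a gene of the AF4/FMR2 family of nuclear proteins, held 5 that were all at percentile 49.7 or lower in both resistant libraries. Those of MACROD2, a mono-ADP-ribosyl hydrolase gene, reached 73.9 and 50.5.

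MAGI2, a scaffold gene of cell junctions and synapses, stood apart at its 5′ end. Its 5 regions were at percentiles between 12.4 and 81.2 in resistant replicate 1 and between 36.2 and 52.9 in resistant replicate 2, and lay from 33.0 to 1041 kb inside the gene. Within 1 kb of the 5′ end, LNCaP replicate 1 had no summit and replicate 2 had one at percentile 7.62, whereas the resistant libraries were at 72.1 and 71.8. Among the other hosts of 4 or 5 regions, PTPRD had 89.6 and 87.4 in LNCaP against 98.1 and 91.3 in the resistant cells, and MACROD2 92.0 and 92.7 against 96.8 and 95.5. INPP4B overlapped, at 84.5 and 79.4 against 83.4 and 69.8, and AFF3 had no summit there.

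Outside genes, KLF4 was nearest to more distal resistant-only regions than any other gene. KLF4 encodes a Krüppel-like transcription factor used in reprogramming to pluripotency. It is 4918 bp long, and 10 regions spread over 624 kb around it, 9 of them upstream. The same stretch held 10 distal LNCaP-only regions and 6 distal regions found in all 4 libraries. The strongest, 97.9 kb upstream, was at percentiles 47.5 and 69.5, followed by one 108 kb upstream at 67.6 and 49.3. The medians of the 10 were 50.2 and 33.0, close to those of all distal resistant-only regions. At the 5′ end of KLF4, LNCaP had 53.9 and 39.9 and the resistant cells 85.8 and 63.5, higher in both and without overlap. Next came ACO1, BRINP3 and MDFIC with 6 regions each. MDFIC, which encodes a MyoD family inhibitor domain protein, had a 5′ end without a summit in LNCaP and at percentiles 64.3 and 54.0 in the resistant cells. BRINP3, a neuronal cell-cycle inhibitor gene, had less there, 64.0 and 56.8 against 77.0 and 86.3 in LNCaP.

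**Figure D4:**
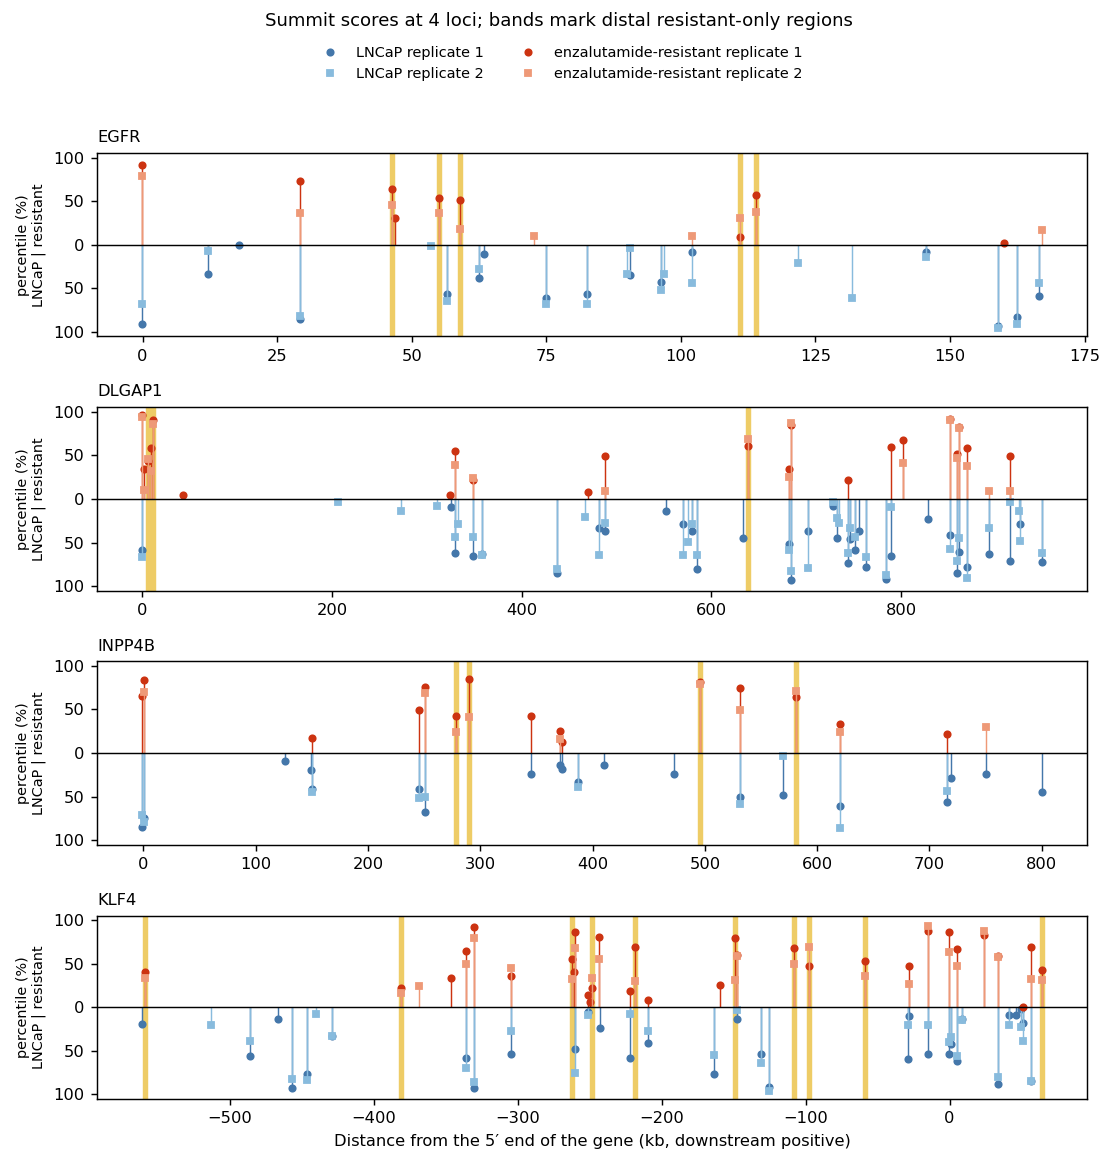
Summits at EGFR, DLGAP1, INPP4B and around KLF4, by distance from the gene's 5′ end (x axis, kb, downstream positive); score percentiles (y axis, %) of the resistant libraries point up and those of LNCaP point down, circles are replicate 1 and squares replicate 2, and yellow bands mark the distal resistant-only regions. Of the 4 regions of DLGAP1, 3 sit within 10788 bp of its 5′ end, while the 4 of INPP4B lie from 278 to 581 kb inside the gene.

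Over all genes, promoters of genes linked to a distal resistant-only region were set against those of all genes, and the differences were small. A gene was linked when it held a region or was the nearest protein-coding gene to one outside genes, which applied to 13.2% of protein-coding genes. Of the 2122 linked genes with a known strand, 3.68% (2.96% to 4.56%) had a promoter summit in both resistant and neither LNCaP library, against 3% of all 15842 genes and 2.90% (2.63% to 3.20%) of genes without a linked region. Where the promoter had a summit in all 4 libraries, it was higher without overlap in the resistant cells for 31.3% (28.7% to 33.9%) of 1251 linked genes and lower without overlap for 19.7%, against 27.8% and 20.8% over all genes. The median change from LNCaP to the resistant cells was 1.11 percentile points for linked genes and 0.30 for the others. It was 1.99 points for genes with 2 or more linked regions.

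The promoters of 3 linked genes show sequence with a summit in both resistant libraries and in neither LNCaP library. They were taken, after their values were seen, as the strongest whose 250 bases upstream of the gene held the summits of both. ZNF716 encodes a zinc-finger protein, TENT5B a poly(A) polymerase and MPP1 a membrane scaffold protein. The bases are those of RefSeq (GRCh38.p14) on the gene's strand, 5′ to 3′, with motif matches in capitals.
ZNF716, chr7:57449927-57450176, plus strand: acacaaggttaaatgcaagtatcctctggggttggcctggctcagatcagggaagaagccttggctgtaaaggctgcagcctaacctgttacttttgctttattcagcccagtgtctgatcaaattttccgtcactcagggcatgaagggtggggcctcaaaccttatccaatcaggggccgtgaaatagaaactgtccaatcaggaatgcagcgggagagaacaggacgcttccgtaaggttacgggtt
TENT5B, chr1:27012851-27013100, minus strand: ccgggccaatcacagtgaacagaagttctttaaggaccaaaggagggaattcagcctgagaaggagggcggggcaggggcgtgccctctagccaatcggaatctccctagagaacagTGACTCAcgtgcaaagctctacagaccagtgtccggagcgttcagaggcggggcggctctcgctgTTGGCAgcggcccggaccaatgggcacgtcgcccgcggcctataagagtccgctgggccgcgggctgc
MPP1, chrX:154805486-154805735, minus strand: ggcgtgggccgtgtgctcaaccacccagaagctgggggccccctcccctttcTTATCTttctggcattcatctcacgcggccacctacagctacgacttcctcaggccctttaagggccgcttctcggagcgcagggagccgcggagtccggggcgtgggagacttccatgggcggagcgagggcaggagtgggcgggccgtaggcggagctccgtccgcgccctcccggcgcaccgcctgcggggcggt
The summits stood 98 and 46 bases upstream of ZNF716 at percentiles 98.9 and 97.4, 180 and 185 bases upstream of TENT5B at 93.9 and 87.2, and 48 and 5 bases upstream of MPP1 at 92.7 and 78.6. The distal region linked to ZNF716 lay 326220 bp downstream of its 5′ end, that of TENT5B lay 3529 bp inside the gene and that of MPP1 5916 bp inside. The letters searched, on both strands, were TGANTCA for AP-1, CAGCTG for an E-box, AGATAA for GATA factors, TGTTTAC for forkhead factors and TTGGCA for a nuclear factor I half-site. TENT5B held the AP-1 letters, which read the same on either strand, at −133 to −127 and the nuclear factor I half-site at −68 to −63, counted from the 5′ end. MPP1 held the GATA letters on the opposite strand at −198 to −193, and ZNF716 none of the letters searched. In the 15843 promoters of the RefSeq table, 5.04% held the AP-1 letters, 13.3% the E-box, 6.84% GATA, 2.25% forkhead and 9.25% the nuclear factor I half-site, so each match is a description. The sequences of the distal regions themselves were not analysed here.

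Gene families of the synapse were linked most often, and these are families of long genes. Of 30 synaptic adhesion genes, 20 were linked, or 66.7%, with 37 regions in all, against 13.2% of protein-coding genes. Linkage followed length: it was 5.16% for genes shorter than 10 kb, 11.2% from 10 to 100 kb, 30.4% from 100 to 500 kb and 63.8% (201 of 315) from 500 kb. For genes of at least 100 kb it was 33.6%, and 20 of the 25 synaptic adhesion genes of that length were linked. Of the synaptic adhesion genes of at least 500 kb, 14 of 17 were linked. Apart from CADM2 and PTPRD, the strongest regions of the list were at CNTN3, a neuronal contactin gene, at percentiles 95.1 and 79.7 and 174614 bp upstream, in PTPRS, a receptor phosphatase gene, at 87.3 and 63.1, and in NLGN1, the neuroligin of excitatory synapses, at 73.0 and 65.3. The distal LNCaP-only regions, a set of 33295, were linked to 24 of the same 30 genes, against 47.5% of protein-coding genes and 91.9% of those of at least 100 kb. Among glutamate and GABA receptor genes 14 of 25 were linked, with GRID1 at 87.4 and 67.9 and GRIA4 at 75.6 and 56.0. Among axon guidance genes 18 of 33 were linked, with UNC5D at 84.6 and 75.1. Linked were also 12 of 25 voltage-gated channel genes and 14 of 26 cadherins outside the clustered genes. Of the genes of at least 500 kb, 6 of 7 receptor and 5 of 10 axon guidance genes were linked. So were 3 of 4 channel and 5 of 8 cadherin genes, against 63.8% of all genes that long. Distal LNCaP-only regions were linked to 22 of the receptor, 33 of the axon guidance, 24 of the channel and 25 of the cadherin genes.

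**Figure D5:**
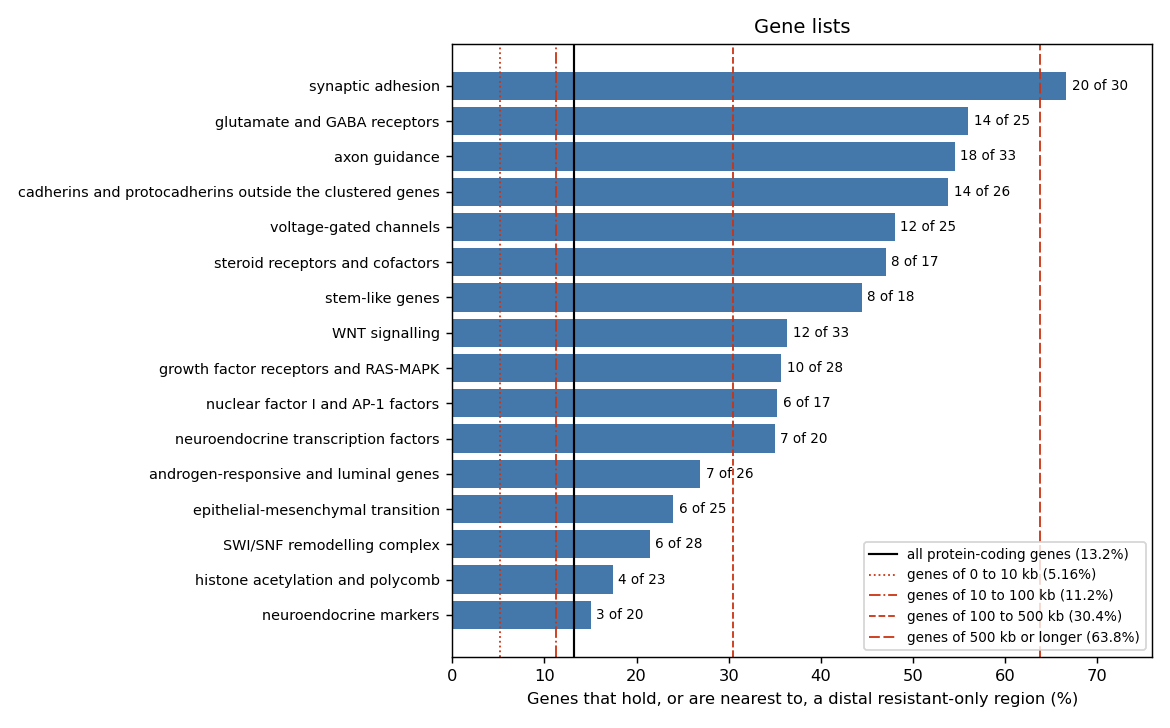
Percent of the genes of each list that hold, or are nearest to, a distal resistant-only region (x axis, %; y axis, gene list), with linked genes of all found beside each bar. The black line is all protein-coding genes (13.2%), and the red lines are genes by length, from 5.16% below 10 kb to 63.8% from 500 kb.

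Genes of neuroendocrine identity, the cell state to which prostate cancer can shift under antiandrogen treatment, were counted as a list of factors and a list of markers. With 20 genes in each, a difference between the lists was not tested. Of 20 genes listed as neuroendocrine transcription factors, among them the splicing factor gene SRRM4, 7 were linked, or 35%, against 13.2% of protein-coding genes. Their median length was 5670 bp, and 5.16% of genes under 10 kb were linked. The distal LNCaP-only regions were linked to 15 of them, or 75%, against 47.5% of protein-coding genes and 18.5% of those under 10 kb. Of the 7 genes linked to resistant-only regions, 2 held a region and 5 were linked as the nearest gene. The strongest region was 417602 bp from POU3F2, the neural factor BRN2, at percentiles 79.1 and 64.9, and the next was 9887 bp from ST18 at 79.5 and 61.5. SRRM4, a neural splicing factor gene, was nearest to 2 regions, the stronger at 61.2 and 23.8. Near SOX2, a stem cell and neural factor, a region 5047 bp from the gene was at 33.0 and 23.8. Of 20 neuroendocrine marker genes 3 were linked, or 15%, close to the share of all genes. They were SCG2, a secretogranin gene, at 69.0 and 61.5, SNAP25, of the synaptic vesicle fusion complex, at 54.8 and 68.8, and PCSK2, a prohormone convertase gene, at 2.01 and 9.58. The distal LNCaP-only regions were linked to 13 of the 20 marker genes, or 65%, against 47.5% of protein-coding genes.

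Androgen-responsive and luminal genes were linked in 7 of 26 cases, or 26.9%, against 13.2% of all protein-coding genes. Their median length was 51783 bp, against 24115 bp for all protein-coding genes, and linkage rose with length. Of the 7 genes of this list of at least 100 kb, 4 were linked, against 33.6% of all genes that long. The distal LNCaP-only regions were linked to 20 of the 26, or 76.9%, against 47.5% of protein-coding genes. PMEPA1, an androgen-induced gene, held a region at percentiles 69.5 and 36.7, and FKBP5, a glucocorticoid and androgen target, held one at 2.01 and 16.5. GRHL2, an epithelial transcription factor, was nearest to 2 regions, the stronger at 72.1 and 59.1. Among steroid receptor and cofactor genes 8 of 17 were linked, or 47.1%, and 7 of the 14 of at least 100 kb, against 33.6% of all genes that long. They included ESRRG at 81.9 and 72.0 and ESR1, the oestrogen receptor gene, at 66.5 and 52.9. The distal LNCaP-only regions were linked to 16 of the 17 steroid receptor and cofactor genes. The region nearest to TMPRSS2, a luminal serine protease gene, lay inside MX1, 38111 bp from the nearer end of TMPRSS2, at 82.8 and 62.0. The paper, looking at start sites, reports less accessible chromatin at TMPRSS2 in LN-35. The rule used here leaves out such sites.

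Among chromatin regulators, SMARCA4, the ATPase of the SWI/SNF remodelling complex, held 1 region, 92608 bp from its 5′ end on chromosome 19 (11053384 to 11053888), at percentiles 53.7 and 31.2 and 795 bp from an LNCaP summit. In the SWI/SNF list 6 of 28 genes were linked, or 21.4%, against 13.2% of all protein-coding genes and 11.2% of those of 10 to 100 kb. Of the 8 SWI/SNF genes of at least 100 kb, 2 were linked, or 25%, against 33.6% of all genes that long. The strongest region of the list was 6566 bp upstream of SMARCD2, a core subunit gene, at 82.8 and 79.6. In the list of histone acetylation and polycomb genes 4 of 23 were linked, or 17.4%, led by KAT2B, an acetyltransferase gene, at 88.8 and 71.7. The distal LNCaP-only regions were linked to 15 of the 28 and 17 of the 23, against 47.5% of protein-coding genes. No region lay within 100 kb of PROX1, a homeobox factor, or of ENO2, neuron-specific enolase: the nearest were 111395 and 113824 bp away. The nearest to SYP, synaptophysin, was 26949 bp away inside CACNA1F, at 64.2 and 3.86. The paper reports more accessible chromatin in resistant cells at the start sites of SMARCA4, PROX1, SYP and ENO2. The rule used here leaves out start sites, so these distances do not bear on that report.

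Signalling and stem-like genes gave some of the stronger regions, and their shares are to be read against the 13.2% of all protein-coding genes and the 33.6% of those of at least 100 kb. In WNT signalling 12 of 33 genes were linked, or 36.4%, and the regions inside WNT7B, a ligand, at 93.5 and 89.6, and TCF7L2, a transcription factor of the pathway, at 92.5 and 71.9, led the list. Of 28 growth factor receptor and RAS-MAPK genes 10 were linked, or 35.7%, among them SPRY2 and SPRY4, inhibitors of receptor tyrosine kinase signalling, at 85.2 and 74.0 and at 77.1 and 70.1. Of 17 nuclear factor I and AP-1 genes 6 were linked, or 35.3%, and besides NFIC these included ATF3 at 89.5 and 78.4, FOS at 65.2 and 56.0, and NFIA at 71.9 and 24.1. Of 18 stem-like genes 8 were linked, or 44.4%, the strongest region being 47612 bp upstream of ITGB1, integrin beta 1, at 85.7 and 74.6, followed by ALDH1A1, an aldehyde dehydrogenase gene, at 76.5 and 47.6. Of the 8, 1 held a region and 7 were linked as the nearest gene. Of the 4 stem-like genes of at least 100 kb, 1 was linked. In the epithelial-mesenchymal transition list 6 of 25 were linked, or 24%, with TWIST1 at 58.5 and 50.8 and TGFB2 nearest to 3 regions. Distal LNCaP-only regions were linked to 27 of the WNT, 21 of the growth factor and 11 of the nuclear factor I and AP-1 genes. They were also linked to 15 of the stem-like and 22 of the epithelial-mesenchymal transition genes. Over protein-coding genes their share was 47.5%, and 91.9% over those of at least 100 kb.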

How the data were processed

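ATAC-seq was measured in 4 libraries, 2 of LNCaP and 2 of enzalutamide-resistant cells. The authors deposited the peak summits of each library as a separate list with a score in the form of −log10 of a p-value or q-value. Which of these it is, and the thresholds used, are not given in the sources used here. Each list starts just above 1.3. The submitters' processing notes name hg38, Bowtie2 2.2.5, SAMtools 1.6 and MACS2 2.2.6. Scores depend on depth, which is unknown, so they were only ranked within a list.

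Windows of 250 bp to each side of a summit were merged over the 4 libraries. The strongest summit of a region was the one with the highest percentile. Genes came from RefSeq (GRCh38.p14). Main chromosomes were used, which left out 7 resistant-only regions on other sequences. The strand came from the promoter table, which covers 15842 protein-coding genes. Members and gene lists were chosen with earlier results of these data known. The genes named were those of the 10 regions of highest mean percentile, the 5 largest groups, the 8 genes holding most regions, up to 4 examples per gene list, loci of the study, and the regions beside the 3 kb limit. The genes nearest to most regions, their 5′ ends and the sequences shown were added after values were seen. No test between cell types was made. The code was tested on simulated lists. Scripts ran in Python 3.11.15 with pandas 2.3.3 and numpy 2.4.6, and figures were drawn in matplotlib 3.10.9. Alternatives were other windows, score minimums, equal numbers of summits, other distances and membership rules, and leaving out each library. Some items are not reported here.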

Additional observations from a re-analysis of the deposited data

How the results depend on the processing

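The number of distal resistant-only regions, 3484, moved with the rule of membership, the score minimum and the lists used. It was 1874 with a score of at least 10, 2265 beyond 10 kb of a gene end, 6437 with every list cut to its top 45618 summits and 13000 with a summit in at least 1 resistant library. Leaving out 1 library also lifts the condition that the rule sets on that library, which favours a higher count. It gave 4153 to 11881, the highest without resistant replicate 2, which has the shortest list. The share inside a protein-coding gene was 50.2% with a score of at least 10 and 44.6% when only the ends of protein-coding genes counted, and lay between 48.4% and 49.8% with 1 library left out.

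The share with another region within 10 kb was 6.11%. Under the alternatives it was 4.26% with windows of 500 bp, 3.79% with a score of at least 10, 10.1% with equal numbers of summits, 17.4% with at least 1 resistant library, 7.26% beyond 1 kb and 5.30% beyond 10 kb of a gene end, 7.42% with protein-coding gene ends, 3.62% and 12.3% with joining distances of 5 and 25 kb, and 7.10% to 16.0% with 1 library left out, the highest again without resistant replicate 2.

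The share on chromosome 7, followed after the data were seen, lay between 7.68% (score of at least 10) and 9.38%. Its interval was 6.56% to 8.98% with that score minimum and 7.12% to 8.43% with equal numbers of summits, at 7.75%. Both reached below 7.21%, the upper bound of the shared class in the main setting. The other classes were not recomputed under these settings. Linked synaptic adhesion genes numbered 13 with a score of at least 10 and 19 to 26 otherwise. Of the 10 strongest regions, 7 stayed members with windows of 500 bp, 7 without any LNCaP summit within 1 kb and 4 beyond 10 kb of a gene end, and 10 in each other setting. With a score of at least 10, for which percentiles were taken anew, the mean percentile of 8 of them moved by more than the SD between replicates. Most other settings cannot move it that far by their construction. No paired analysis was possible because the results come from no test. Without read counts, a peak missed in a library cannot be told apart from a closed site.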
